A study of Mus musculus with 71 samples.

Results

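RING1B ChIP-seq in neural progenitor cells (NPC) at day 6 of differentiation was compared between mouse J1 cells carrying the CaPS form of CBX7 and J1 cells carrying wild-type CBX7 (WT). The comparison used 4 of the 71 samples of the series, a WT and a CaPS library from each of experiments 3 and 5, over all 15091 RING1B intervals of the authors' time course. Experiments are the group numbers in the sample titles, and libraries of one experiment were compared as a pair. Cells of both genotypes were depleted of feeder cells, grown as aggregates in suspension without LIF, given retinoic acid at 5 µM from day 4 and collected on day 6. Undifferentiated embryonic stem cells (ESC) and day-8 NPC of the same genotypes and experiments, 4 libraries each, served as the other stages. From the series title, the CaPS form places in pluripotent cells a Polycomb domain that belongs to committed cells. The labels name no clone and do not say that libraries of a genotype came from separate cultures. The spread between libraries may thus be technical. A p-value reflects the spread usual at a given signal strength over the 12 time-course libraries, not that of each interval alone. Expression was not measured in these samples, so the NPC label could not be checked against marker genes. In WT the interval at Pax6, a regulator of neural progenitors, held 4016 and 5116 tags per 10 M in ESC, in experiments 3 and 5. At day 6 it held 1049 and 1417. The share of WT tags inside all intervals fell as well, from 11.2% and 11.8% to 5.89% and 6.59%, so a fall was not particular to Pax6.

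Polycomb repressive complex 1 (PRC1) keeps developmental genes silent. RING1B is its ubiquitin ligase, which marks histone H2A, and CBX proteins such as CBX7 bring the complex to H3K27me3, the mark left by PRC2. CBX7 predominates in pluripotent cells, and other CBX proteins such as CBX2 and CBX8 take over as cells commit. During neural differentiation Polycomb normally leaves neural genes that become active and moves onto genes of pluripotency and of other lineages.

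The values were tags inside each interval, scaled to 10000000 (10 M) tags per library. Totals were 18.36 M tags for WT and 11.3 M for CaPS in experiment 3, and 2.01 M and 2.42 M in experiment 5. An interval listed at 0 can hide up to 3 tags, equal to 1.63 (WT) and 2.65 (CaPS) tags per 10 M in experiment 3 but to 14.9 and 12.4 in experiment 5 (counting error only). The CaPS library of experiment 5 stood apart, with 12.1% of its tags inside the intervals against 5.61% for CaPS of experiment 3 and 5.89% and 6.59% for the WT libraries. Results were therefore also computed with every library scaled to the same sum over the intervals, called equal-sum scaling here, and without that library. Whether it held more RING1B or only less background cannot be told apart from these files.

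RING1B at day 6 was higher in CaPS than in WT at genes that include Sox2, Sall1 and Sp8, and lower at the heart gene Tbx5 and upstream of Gata4. The calls at Sall1 and Sp8 depended on the CaPS library of experiment 5. On the deposited scale 601 intervals were called (3.98%). Of these 552 were higher in CaPS, 3.66% of the 15091 tested, and 49 were lower, 0.325% (limma, adjusted p under 0.05). With equal-sum scaling 247 were higher (1.64%) and 168 lower (1.11%), of which 228 and 42 were called in the same direction on the deposited scale. The share of calls that were higher thus went from 91.8% to 59.5%, and the median log2 difference of all intervals from 0.41 to 0.09. Within experiment 3 the median was 0.14, and within experiment 5 it was 0.63. Of the 552 higher calls, 522 had both CaPS libraries above both WT libraries, a pattern seen in 29% of all intervals. Of the 49 lower calls, 45 had both CaPS libraries below both WT libraries, seen in 10.2% of all intervals. More RING1B on each allele and more cells that hold it cannot be told apart in these bulk libraries.

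**Figure D1:**
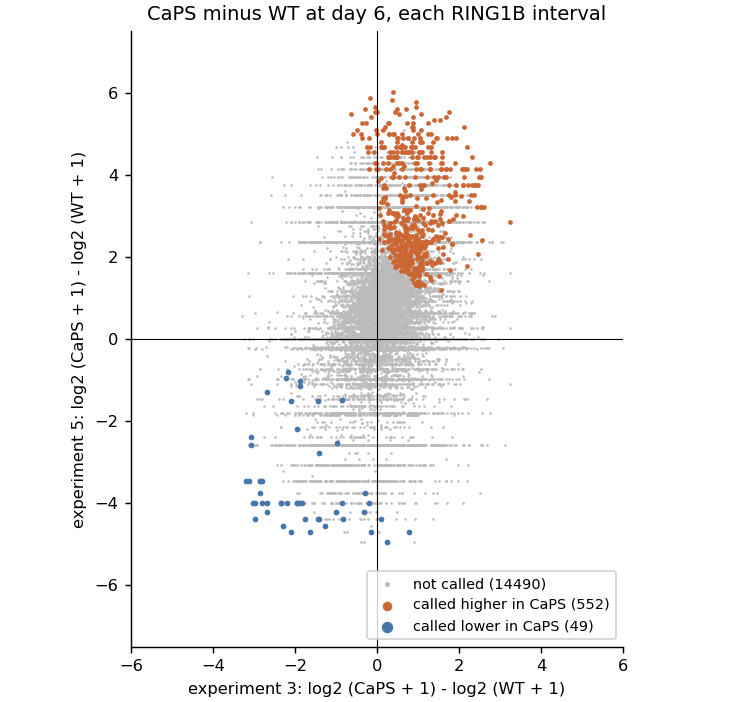
Difference between CaPS and WT at day 6 in experiment 3 (horizontal) and experiment 5 (vertical), as log2 (value + 1), with 1 point for each of the 15091 RING1B intervals. The 552 intervals called higher (orange) lie mostly in the upper right and the 49 called lower (blue) mostly in the lower left, and the vertical spread is wider than the horizontal one.

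Sox2, a transcription factor that maintains both pluripotent cells and neural progenitors, had the largest log2 difference among the 91 strong intervals called higher, those with a mean of at least 100 tags per 10 M. Its interval (chr3:34639212-34668491, mm10, with the gene inside it) held 536 and 590 tags per 10 M in WT and 2558 and 6087 in CaPS, in experiments 3 and 5. Both CaPS libraries were far above both WT libraries, 4.77-fold in experiment 3 and 10.3-fold in experiment 5. The log2 difference was 2.81 (SE 0.47, adjusted p = 2.34e-06) and 2.41 with equal-sum scaling (adjusted p = 1.36e-13). Leaving out the CaPS library of experiment 5 gave an adjusted p of 0.0331, and leaving out the WT library of that experiment gave 0.0252. With experiment 3 as the only pair the log2 difference was 2.25 and did not pass (adjusted p = 0.718). In ESC the interval held 597 and 737 tags per 10 M in WT and 1032 and 1540 in CaPS, and at day 8 it held 1168 and 550 in WT and 3109 and 6178 in CaPS. The groups did not overlap at any of the 3 stages.

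Promoters of Polycomb targets are often rich in CpG dinucleotides, so the 250 bases before the start are shown for loci where RING1B differed. The genes are Sox2, Tdgf1 and Hesx1, all higher in CaPS, and Hand2, lower in CaPS with equal-sum scaling only (RefSeq, GRCm38.p6, 5′ to 3′, CpG in capitals). They lie at chr3:34649745-34649994 (plus strand), chr9:110946159-110946408 (minus), chr14:27000112-27000361 (plus) and chr8:57320733-57320982 (plus).
Sox2: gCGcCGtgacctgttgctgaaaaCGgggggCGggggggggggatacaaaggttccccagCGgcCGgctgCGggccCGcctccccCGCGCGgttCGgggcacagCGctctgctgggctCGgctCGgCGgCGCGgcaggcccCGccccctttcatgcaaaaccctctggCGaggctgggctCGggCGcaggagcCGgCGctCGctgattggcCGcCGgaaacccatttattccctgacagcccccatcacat
Tdgf1: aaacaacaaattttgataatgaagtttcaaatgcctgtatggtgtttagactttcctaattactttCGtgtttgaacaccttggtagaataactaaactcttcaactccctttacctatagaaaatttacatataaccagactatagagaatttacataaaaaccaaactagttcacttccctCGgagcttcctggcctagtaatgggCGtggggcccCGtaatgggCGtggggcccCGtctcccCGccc
Hesx1: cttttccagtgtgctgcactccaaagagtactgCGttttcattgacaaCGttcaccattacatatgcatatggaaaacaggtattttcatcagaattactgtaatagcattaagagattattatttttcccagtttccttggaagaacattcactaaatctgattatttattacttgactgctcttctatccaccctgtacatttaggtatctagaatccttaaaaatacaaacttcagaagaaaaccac
Hand2: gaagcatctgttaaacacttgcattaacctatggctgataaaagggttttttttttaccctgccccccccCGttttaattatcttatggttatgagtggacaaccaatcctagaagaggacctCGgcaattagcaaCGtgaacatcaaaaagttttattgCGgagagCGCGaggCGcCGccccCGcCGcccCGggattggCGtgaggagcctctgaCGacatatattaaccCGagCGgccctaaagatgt
The letters CG occurred 27 times before Sox2, 15 times before Hand2, 7 times before Tdgf1 and 2 times before Hesx1. Sox2 thus had a dense CpG promoter and Hesx1 a sparse one, although both were higher in CaPS. Over all 32807 promoters of the same length the median was 6, and 92.1% held at least 1 CG. The 3772 promoters inside a RING1B interval had a median of 16, as did the 239 inside intervals called higher in CaPS. Only 4 promoters lay inside intervals called lower on the deposited scale, while the 117 in intervals lower with equal-sum scaling had a median of 13. These counts describe the letters in this window and were not tested.

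Further strong intervals called higher in CaPS lay at Sall1, Sp8 and other genes, which were chosen after the values were seen. Sall1, a zinc finger factor of pluripotent cells, kidney and neural tissue, held 178 and 194 tags per 10 M in WT and 599 and 1441 in CaPS (log2 2.31, SE 0.39, adjusted p = 2.71e-06). Sp8, which patterns forebrain and limb, held 894 and 991 in WT and 2048 and 5164 in CaPS (log2 1.79, SE 0.53, adjusted p = 0.0282). At both genes the WT libraries lay close together, both CaPS libraries lay above them and that of experiment 5 was the highest. Skida1 (log2 1.64), Eya4 (1.42), Npas3 (1.28) and Rfx4 (1.24), the last a factor of neural tube patterning, were called as well. Without the CaPS library of experiment 5 neither Sall1 (adjusted p = 0.0651) nor Sp8 (adjusted p = 0.794) passed. With equal-sum scaling both passed, with log2 differences of 1.91 for Sall1 and 1.39 for Sp8.

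Genes of other functions were called as well, and those given here were chosen after their values were seen. Gldc, which encodes the glycine cleavage enzyme highly expressed in pluripotent cells, held 28.3 and 17.4 tags per 10 M in WT and 109 and 211 in CaPS (log2 2.71, SE 0.38, adjusted p = 2.69e-08). Zswim5 held 35.1 and 44.8 in WT and 136 and 370 in CaPS (log2 2.47, adjusted p = 2.98e-08), and Socs2, an inhibitor of cytokine signalling, 60.4 and 99.7 against 192 and 605 (log2 2.12, adjusted p = 2.66e-06). Eras, a RAS protein of ES cells, held 70.0 and 49.8 in WT and 183 and 275 in CaPS (log2 1.91, adjusted p = 5.27e-05). In all 4 genes both CaPS libraries were above both WT libraries. Among the 958 strong intervals, 91 were higher (9.5%) and 6 lower (0.626%) on the deposited scale, and 91 higher and 84 lower with equal-sum scaling. The 2 scalings shared 73 of the higher and all 6 of the lower calls. Of these 97 calls, 10 also passed without the CaPS library of experiment 5 and 15 without the WT library of experiment 5.

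**Figure D2:**
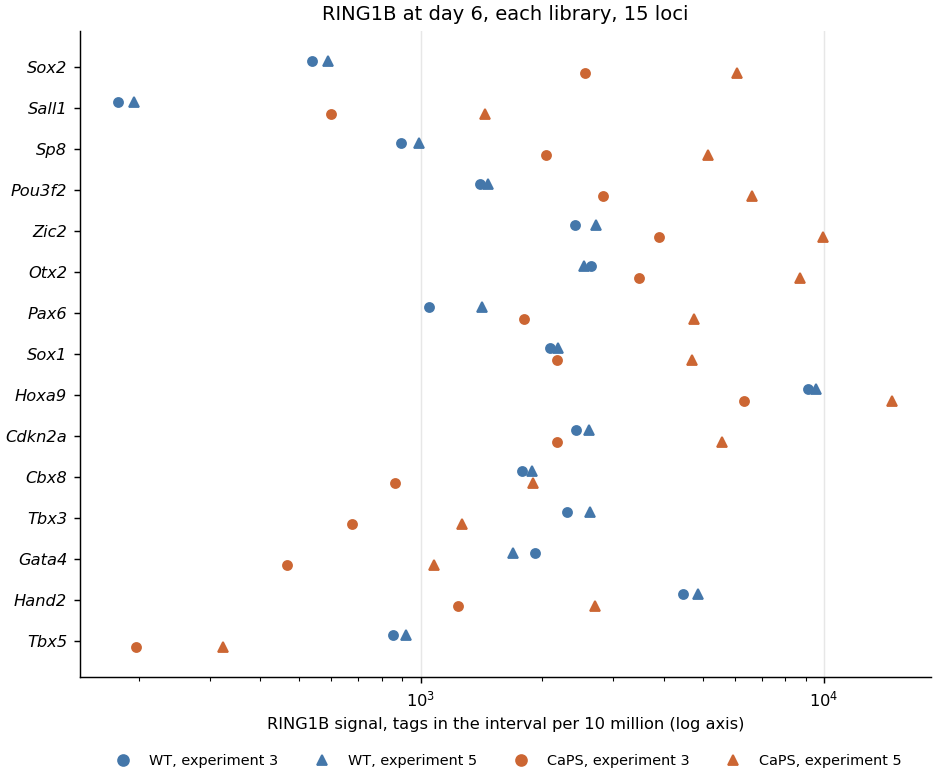
RING1B signal at day 6 (tags in the interval per 10 M, log axis) at 15 loci, with 1 point per library, WT in blue, CaPS in orange, experiment 3 as circles and experiment 5 as triangles. The WT libraries sit close together at each locus, both CaPS libraries sit to their right from Sox2 to Pax6 and to their left from Tbx3 to Tbx5, and the CaPS library of experiment 5 is always to the right of that of experiment 3.

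Of the 6 strong intervals called lower, 1 lay at Tbx5 and 1 upstream of Gata4. The other 4 were annotated to Cacna2d1 and to the noncoding genes 1010001N08Rik, C430049B03Rik and Mir148a. This annotation names 1 gene per interval and can pass over a coding gene inside it, as at Hand2. Tbx5, a T-box factor of heart and forelimb, held 852 and 919 tags per 10 M in WT and 197 and 324 in CaPS (chr5:119829478-119845518). Both CaPS libraries were below both WT libraries, 4.32-fold in experiment 3 and 2.84-fold in experiment 5 (log2 -1.80, SE 0.39, adjusted p = 0.000641). In ESC its values were already lower in CaPS, with 1573 and 1758 in WT and 835 and 837 in CaPS. That ESC difference was not called (limma, log2 -0.99, adjusted p = 0.463). An interval centred at -21185 bases from the start of Gata4, a factor of heart and endoderm (chr14:63260979-63271933), held 754 and 752 in WT and 118 and 306 in CaPS (log2 -1.98, SE 0.38, adjusted p = 5.27e-05). Both passed without the CaPS library of experiment 5, with adjusted p of 0.0474 for Tbx5 and 0.00139 upstream of Gata4. With experiment 3 as the only pair, the interval upstream of Gata4 passed (adjusted p = 0.0119) and Tbx5 did not (adjusted p = 0.300). Over Gata4 itself WT held 1915 and 1696 and CaPS 467 and 1078, without overlap, but the log2 difference of -1.34 did not pass on the deposited scale (adjusted p = 0.061). It passed with equal-sum scaling at -1.75 (adjusted p = 6.98e-12).

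Further genes of heart, limb and mesenchyme passed with equal-sum scaling only, and those given here were chosen after their values were seen. Hand2, a heart and limb factor whose interval the file annotates to a noncoding neighbour, held 4473 and 4870 tags per 10 M in WT and 1236 and 2703 in CaPS (log2 -1.35, adjusted p = 0.138; -1.75 with equal-sum scaling, adjusted p = 2.82e-14). Tbx3, a T-box factor of heart, limb and naive pluripotency, held 2308 and 2621 in WT and 677 and 1266 in CaPS (log2 -1.41, adjusted p = 0.0723; -1.81 with equal-sum scaling, adjusted p = 1.32e-13). Hlx (-1.51), Msx2 (-1.54), Tcf21 (-1.49) and Tbx20 (-1.43) had similar equal-sum differences. Both CaPS libraries were below both WT libraries at all 6 of these genes. Of the 84 strong intervals that were lower with equal-sum scaling, 34 had both CaPS libraries below both WT libraries on the deposited scale. Among all 958 strong intervals this pattern was seen in 35 (3.65%). The rest of the 84 did not show it.

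At Otx2, Zic2, Pax6 and Pou3f2, chosen after their values were seen, RING1B passed as higher in CaPS with equal-sum scaling only. Otx2, a regulator of forebrain and midbrain, held 2649 and 2541 tags per 10 M in WT and 3470 and 8694 in CaPS (log2 1.08, adjusted p = 0.28). Zic2 held 2417 and 2713 in WT and 3896 and 9945 in CaPS (log2 1.28, adjusted p = 0.21), and Pax6 1049 and 1417 against 1808 and 4755 (log2 1.26, adjusted p = 0.125). At Pou3f2, a factor of neural progenitors and neurons whose interval is annotated to a neighbouring noncoding gene, WT held 1402 and 1465 and CaPS 2828 and 6636 (log2 1.59, adjusted p = 0.0678). At these 4 genes the groups did not overlap, and with equal-sum scaling each passed, with log2 differences of 0.68, 0.88, 0.86 and 1.19. Hesx1, a repressor needed for forebrain and pituitary, was the only gene of its list called on the deposited scale. Its interval was weak, with 6.5 and 0 tags per 10 M in WT and 23 and 41.3 in CaPS (log2 3.54, SE 0.61, adjusted p = 5.53e-06).

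The list of 34 forebrain and midbrain genes had 24 measured, by an interval annotated within 10 kb of the gene's start. Of these, 1 was higher, none was lower, and the median log2 difference was 0.18, beside 0.50 for all 7875 genes assigned, of which 398 were higher (5.05%) and 13 lower (0.165%). With equal-sum scaling 178 of all assigned genes were higher (2.26%) and 97 lower (1.23%). Strong intervals were called more often. Of the 145 with at least 1000 tags per 10 M, 17 were higher and 28 lower with this scaling. The 24 genes had a median of 1209 tags per 10 M, against 18.4 for all assigned genes. Among the 24 genes 4 were then higher (Otx2, Zic2, Six6 and Hesx1) and 5 lower (En1, Barhl1, Emx2, Lmx1a and Gsx1). Both directions held forebrain genes, such as Six6 among the higher and Emx2 among the lower. In both experiments 6 of the 24 had higher values in CaPS and 2 had lower ones, and the list's median was -0.36 in experiment 3 and 0.75 in experiment 5. Of 33 hindbrain and spinal cord genes 1 was higher, the weak interval of Dbx2, whose difference turned to -0.25 without the WT library of experiment 5, a library at 0 there. With equal-sum scaling Pax6 was higher, and Lhx1 and Mnx1 were among the lower genes. Of 22 neuronal genes 2 were higher, the weak intervals of Map2 and Neurod6, and none was lower. With equal-sum scaling Slc6a5, Gad2, Slc17a6 and Pou4f2, genes of neurotransmitter use and sensory neurons, were lower and 3 neuronal genes higher.

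Pluripotency genes had 4 of 15 measured members higher and none lower, with a median log2 difference of 0.95. Beside Sox2 these were Tdgf1, Utf1 and Lin28a. Of all 7875 assigned genes 5.05% were higher, with a median of 0.50. The 15 genes had a median of 121 tags per 10 M, and 11.3% of the 706 intervals from 100 to 500 were higher. With equal-sum scaling 2 of the 15 were higher and 1 was lower. Tdgf1, the Nodal co-receptor, held 124 and 92.2 tags per 10 M in WT and 234 and 640 in CaPS (log2 1.85, SE 0.35, adjusted p = 6.51e-05), and it was also called with equal-sum scaling (log2 1.45). Utf1, a chromatin factor of ES cells, held 101 and 89.7 against 141 and 318, and Lin28a, an RNA-binding protein of early cells, 13.1 and 17.4 against 33.2 and 68.1. These 2 did not pass with equal-sum scaling (adjusted p = 0.118 and 0.155). Nodal, the ligand that signals through Tdgf1, was higher on the deposited scale with 32.4 and 44.8 in WT and 69.9 and 147 in CaPS (log2 1.39, adjusted p = 0.0165), and not with equal-sum scaling (adjusted p = 0.0807). At Pou5f1 the values were at or near the counting floor, with 5.4 and 0 tags per 10 M in WT and 9.3 and 16.5 in CaPS (adjusted p = 0.0849). Tbx3, also on this list, had lower values in CaPS and passed with equal-sum scaling only.

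Mesoderm genes had 1 of 26 measured members lower, Tbx5, and none higher, with a median log2 difference of 0.14. With equal-sum scaling 8 were lower, namely Tbx5, Tcf21, Tbx20, Twist1, Hand1, Pax1, Tbx4 and Osr1, and none was higher. The 26 genes had a median of 722 tags per 10 M. Of the 107 intervals from 500 to 1000 tags per 10 M, 25 were lower and 11 higher with this scaling. The 1.23% lower of all assigned genes, most of them weak, is thus a low background for so strong a list. Of 14 endoderm genes none was lower, and with equal-sum scaling Gata4, Onecut1 and Cdx2 were lower. Neural crest genes had none of 13 called, and with equal-sum scaling Msx2, Twist1 and Sox9 were lower. Among markers of fibroblasts, the feeder cells of the ESC cultures, none of 9 was called. Their median was -0.02, and with equal-sum scaling Pdgfra was lower (815 and 859 tags per 10 M in WT, 388 and 725 in CaPS, log2 -1.06). Germ cell genes had 1 of 8 higher, Prdm1, and housekeeping genes 2 of 8, Gapdh and Rplp0, beside 5.05% of all assigned genes. Gapdh held 8.4 and 10.0 tags per 10 M in WT and 25.6 and 57.8 in CaPS, and neither housekeeping gene passed with equal-sum scaling. The part of changed cell composition in these values was not tested.

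**Figure D3:**
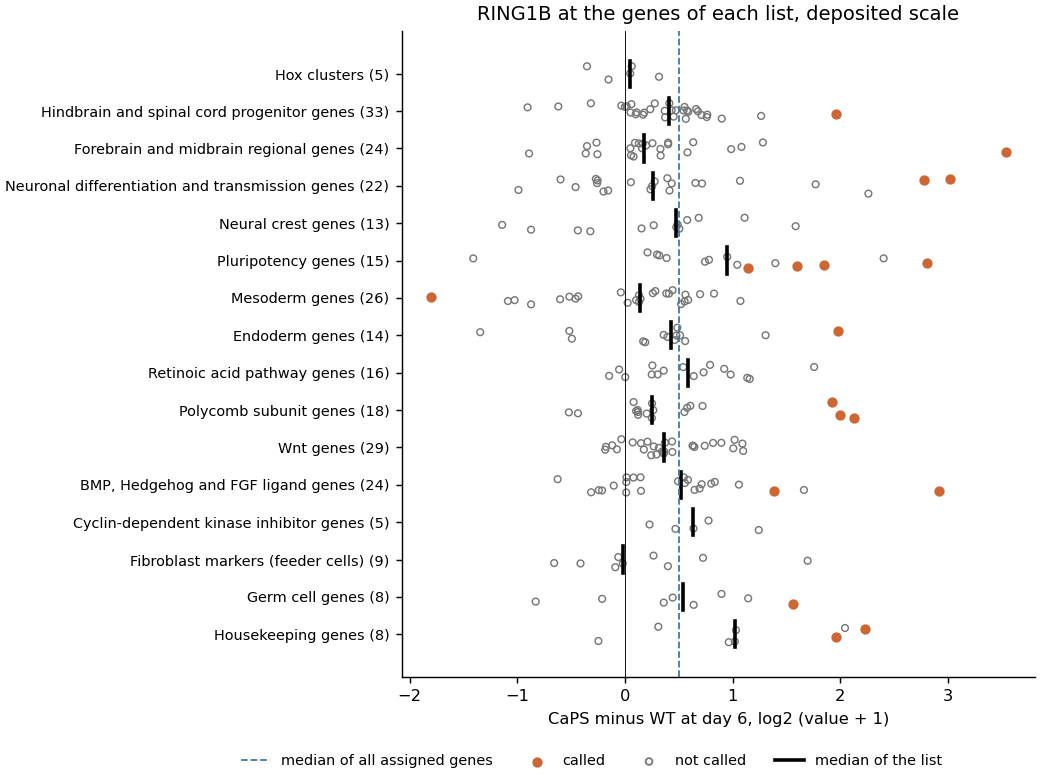
Log2 difference between CaPS and WT at day 6 for each measured gene of 16 lists, on the deposited scale, with called genes filled, the median of each list as a black bar and the median of all assigned genes (0.50) as a dashed line. The medians of pluripotency and housekeeping genes (0.95 and 1.03) lie farthest to the right, that of fibroblast markers (-0.02) lies farthest to the left, and Tbx5 is the only called gene to the left of 0.

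The Hox clusters, which set position along the body axis, held strong RING1B signal and were not called. The HOXA interval (chr6:52149087-52277183, 16 gene starts) held 9101 and 9564 tags per 10 M in WT and 6322 and 14727 in CaPS (log2 0.05, SE 0.84, adjusted p = 0.983). The HOXD interval held 7430 and 7735 in WT and 5947 and 14981 in CaPS (log2 0.32, SE 0.78, adjusted p = 0.858). In both clusters the CaPS libraries lay on either side of the WT libraries. By gene starts inside an interval, 22 of 39 Hox genes were measured in 7 intervals, and none was called on the deposited scale. With equal-sum scaling the interval that holds Hoxb4 and Hoxb8 was lower (log2 -0.51), as was that of Hoxb13 (log2 -0.55, adjusted p = 0.0163), where WT held 3226 and 3468 and CaPS 1840 and 4920. At Cdkn2a, the cell cycle inhibitor gene that Polycomb silences in dividing cells, WT held 2422 and 2611 and CaPS 2174 and 5573 (log2 0.47, adjusted p = 0.668).

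Calls among signalling genes are given beside the 5.05% higher and 0.165% lower of all assigned genes. Of 16 retinoic acid pathway genes, which respond to the agent used for differentiation, none was called, with a median of 0.59 on the deposited scale and 0.26 with equal-sum scaling. Cyp26a1, which degrades retinoic acid, held 263 and 316 tags per 10 M in WT and 290 and 473 in CaPS (log2 0.36, adjusted p = 0.612). None of 29 Wnt genes was called (median 0.36), while by gene starts inside an interval 1 of 21 was higher, the receptor gene Fzd10 (log2 1.61). Wnt5a held 545 and 561 in WT and 349 and 679 in CaPS (log2 -0.18, adjusted p = 0.842), and it was lower with equal-sum scaling (log2 -0.58, adjusted p = 0.0402). Of 24 BMP, Hedgehog and FGF ligand genes, Nodal and the weak interval of Lefty2 were higher, and with equal-sum scaling neither passed while Ihh and Dhh were lower. None of 5 cyclin-dependent kinase inhibitor genes was called.

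Among 18 Polycomb subunit genes 3 were higher, Kdm2b, Rybp and Cbx2, and none was lower, beside 5.05% higher of all assigned genes. Kdm2b, which brings variant PRC1 to CpG islands, held 25.9 and 7.5 tags per 10 M in WT and 42.5 and 74.3 in CaPS (log2 1.92, SE 0.43, adjusted p = 0.00121), and it also passed with equal-sum scaling (log2 1.55). Rybp held 19.6 and 0 in WT and 19.0 and 18.6 in CaPS, and its difference turned to -0.32 without the WT library of experiment 5. Cbx8, which encodes a CBX protein of committed cells, held 1787 and 1886 in WT and 863 and 1895 in CaPS. It was not called on the deposited scale (log2 -0.52, adjusted p = 0.572), and with equal-sum scaling it was lower (log2 -0.92, adjusted p = 1.83e-05). At Cbx2 the groups overlapped and 1 library stood far above the others. Its interval of 1153 bases in an exon (chr11:119027600-119028752) held 22.9 and 79.7 in WT and 35.4 and 847 in CaPS, and it did not pass with equal-sum scaling (adjusted p = 0.107).

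At Cbx7, the gene that differs between the genotypes, 2 intervals were annotated. The promoter interval held 37.3 and 59.8 tags per 10 M in WT and 55.3 and 95.0 in CaPS (log2 0.61, adjusted p = 0.382). An interval 11304 bases downstream of the start (chr15:79920128-79922557) held 49.0 and 209 in WT and 67.2 and 873 in CaPS at day 6. It held 128 and 979 in WT ESC, 49.1 and 184 in CaPS ESC, 1748 and 99.2 in WT at day 8 and 22.3 and 111 in CaPS at day 8. Libraries of 1 genotype and day thus differed several-fold there, as they did at the exon of Cbx2, and the cause was not tested. Its call at day 6 (log2 1.25, adjusted p = 0.0200) was lost with equal-sum scaling (adjusted p = 0.473).

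The intervals higher in CaPS are described here by width, position and H3K27me3, with no test. Their median width was 1815 bases, against 626 for all, and 78.3% lay within 10 kb of a transcription start against 61.1%. Intervals of H3K27me3 from day-8 NPC of the series overlapped 56% of them and 28.5% of all. Overlap of any length counted, which favours wider intervals. Of the 1732 intervals with H3K27me3 at day 8 but not in ESC, 8.49% were higher in CaPS. The share was 6.29% of the 2574 with H3K27me3 at both stages, 4.47% of the 582 with it in ESC only and 2.13% of the 10203 with none. Signal differed between these classes, with a median of 19.4, 60.2, 22.8 and 5.3 tags per 10 M in that order. With equal-sum scaling 66 of the 1732 and 101 of the 2574 were higher, and 11 and 92 were lower, so the order of the first 2 classes was not kept. Of the 49 intervals lower on the deposited scale, 28.6% lay within 10 kb of a start and 18.4% in H3K27me3 of day 8, with a median of 7.34 tags per 10 M. Of the 168 lower with equal-sum scaling, 60.1% lay within 10 kb and 61.3% in H3K27me3 of day 8, with a median of 102 tags per 10 M.

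Strong and weak intervals also differed between the experiments. In the 145 intervals of at least 1000 tags per 10 M the median log2 difference was -0.24 in experiment 3 and 0.93 in experiment 5. In the 2406 intervals from 20 to 50 it was 0.21 and 0.86. The median of the strongest intervals thus lay below 0 in experiment 3 and above 0 in experiment 5, and 4 of them were called higher and 2 lower. At the other end, the 10 intervals of largest rise near a gene, which include Enpp4, Dnm1, Slain1 and Ss18, all had the WT library of experiment 5 at 0. In all, 196 of the 552 higher calls had a WT library at 0, and 37 of the 49 lower calls had a CaPS library at 0. Suz12, a PRC2 subunit gene with an intronic interval, held 7.1 and 15.0 tags per 10 M in WT and 0 in both CaPS libraries, where the floor was 2.65 and 12.4. At this depth a difference in such intervals rests on few tags.

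By chromosome, the median difference on chromosome 8 was -0.33 in experiment 3 and -0.27 in experiment 5 relative to the other chromosomes, and on chromosome 11 it was -0.18 and -0.27. The other chromosomes lay between -0.15 and 0.14 in both experiments. Chromosome 8 carries Hand2 and Sall1, and chromosome 11 carries Cbx2 and Cbx8. Whether the cells differed in chromosome number was not tested. Without both chromosomes 549 intervals were higher and 41 lower.

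Whether the difference at day 6 went beyond that of the starting cells was asked with the ESC libraries. CaPS and WT ESC differed at 6 intervals upward and 4 downward, with a median log2 difference of 0.05. The difference at day 6 exceeded that in ESC at 53 intervals (0.351% of 15091) and fell short of it at 3 (0.0199%). With equal-sum scaling the counts were 31 and 35, so the balance of directions depended on the scaling. At 49 of the 53, mean WT signal was lower at day 6 than in ESC, and at 42 mean CaPS signal was higher at day 6 than in ESC. The 53 were chosen by this change of difference, so such courses partly follow from the choice. The share of tags inside all intervals also fell in WT, from 11.2% and 11.8% in ESC to 5.89% and 6.59% at day 6. In CaPS it went from 10.1% and 11.1% to 5.61% and 12.1%. The genes named next were chosen after their values were seen. Sall2, a zinc finger factor related to Sall1, went from 92.5 and 115 tags per 10 M in WT ESC to 23.4 and 27.4 at day 6, while CaPS went from 60.5 and 101 to 80.5 and 153. Its change of difference was 2.48 on the log2 scale (adjusted p = 0.00335). Rgma, a guidance molecule of the neural tube, held 274 and 286 in WT ESC and 64.8 and 47.3 at day 6, and in CaPS 224 and 217 in ESC and 125 and 231 at day 6 (change 1.95, adjusted p = 0.0346). Prok2, a secreted neural signal, held 226 and 185 in WT ESC and 111 and 110 at day 6, against 151 and 169 and then 230 and 529 in CaPS (change 2.01, adjusted p = 0.0266). Gldc changed as well (2.59, adjusted p = 0.00268). Sox2 (1.88, adjusted p = 0.161), Sall1 (1.86, adjusted p = 0.0912), Tbx5 (-0.81, adjusted p = 0.523) and Pax6 (1.71, adjusted p = 0.287) did not pass. Without the CaPS library of experiment 5 limma called 0 intervals (847 at an unadjusted p under 0.05), and without the WT library of experiment 5 it called 3. With all libraries edgeR with TMM scaling called 19.

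**Figure D4:**
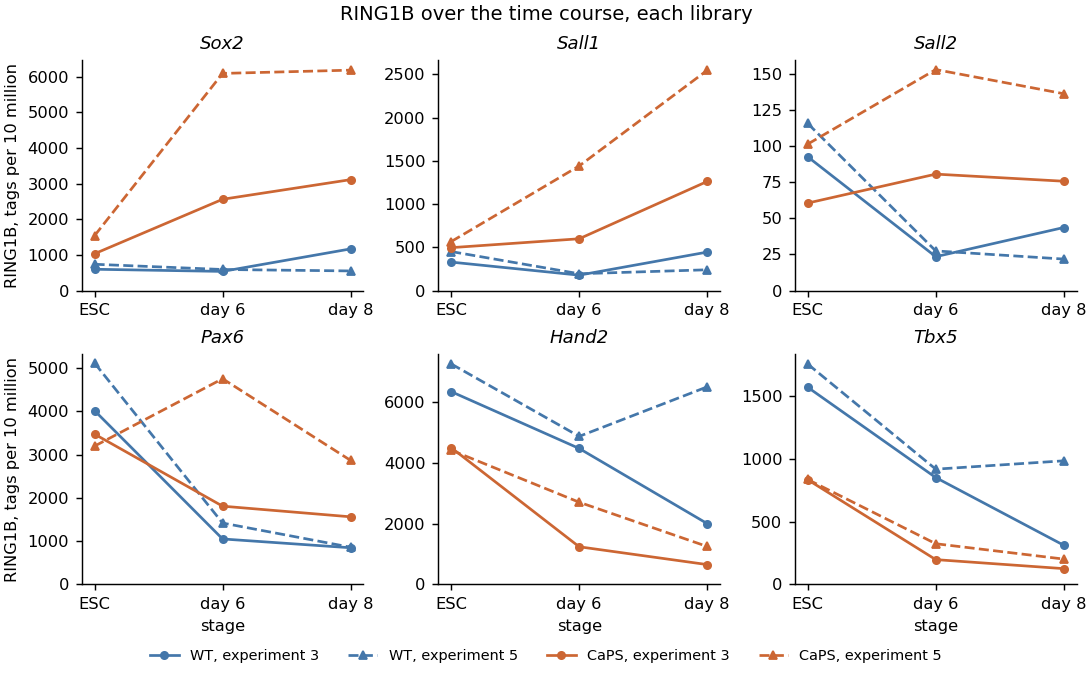
RING1B signal (tags per 10 M, linear axis from 0) in ESC, at day 6 and at day 8 for 6 genes, with 1 line per genotype and experiment. CaPS lies above WT at day 6 for Sox2, Sall1, Sall2 and Pax6 and below WT for Hand2 and Tbx5, and at day 8 the WT libraries differ widely at Hand2 and Tbx5.

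By day 8 the CaPS and WT libraries differed at 116 intervals upward and 37 downward. The difference at day 6 exceeded that at day 8 at 3 intervals (0.0199%) and fell short of it at none (0%). The 3 were those at Cbx2, at Maged1 and in an intron downstream of the start of Cbx7. At an unadjusted p under 0.05 there were 1186 intervals, and edgeR with TMM scaling called 5 above and 0 below. With equal-sum scaling limma called 6 above and 6 below, so here too the balance of directions depended on the scaling. The WT day-8 libraries were themselves unlike at many loci, as at Tbx5 with 312 and 986 tags per 10 M and at Hand2 with 2000 and 6500. Without them 404 intervals were higher at day 6 and 35 lower. Sox2 and Sall1 kept a high CaPS signal at day 8, with 1262 and 2547 at Sall1 against 445 and 240 in WT.

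The number of calls depended on the test and on single libraries. edgeR on the recovered read ends called 79 higher and 48 lower with TMM scaling, and 75 intervals were higher and 19 lower in all of limma as deposited, limma with equal-sum scaling, limma with median-ratio scaling and edgeR. Fitting the 4 day-6 libraries alone, with experiment as a block, left 49 higher and 2 lower. A linear model with each interval's own variance called 0, with 2064 at an unadjusted p under 0.05 against 3243 in the reported test. Leaving out the CaPS library of experiment 5 left 14 calls and the WT library of that experiment 22, and leaving out the WT or CaPS library of experiment 3 gave 1760 or 1750. Sox2, Tbx5 and the interval upstream of Gata4 passed in each of the 4 fits that left out 1 day-6 library.

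**Figure D5:**
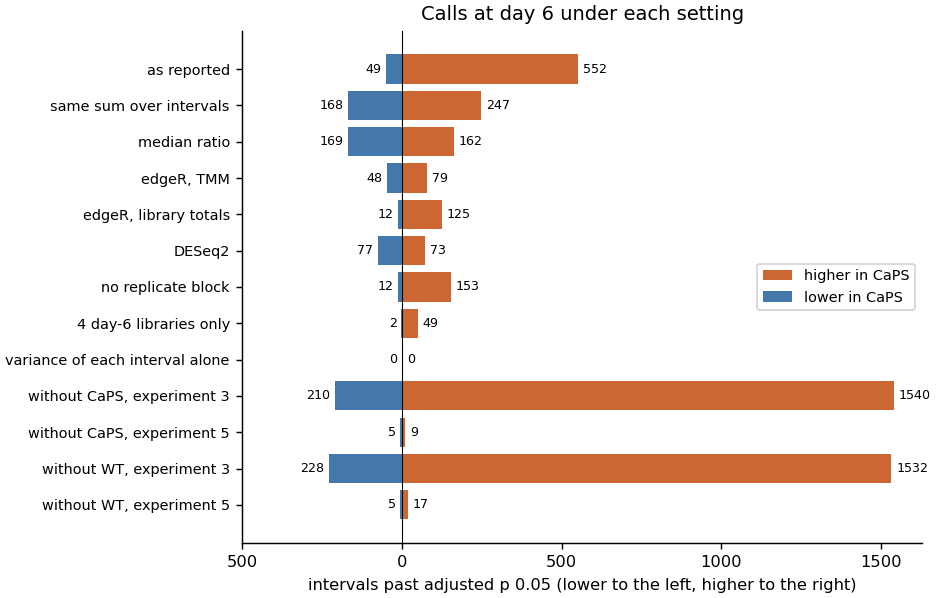
Number of intervals past an adjusted p of 0.05 at day 6 under 13 settings, with those higher in CaPS to the right and those lower to the left of 0. The bars run from 0 calls with the variance of each interval alone to 1540 higher calls without the CaPS library of experiment 3, and scaling moves the balance between higher and lower.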

How the data were processed

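RING1B ChIP-seq was taken from the authors' time-course table of mouse cells. Its values are normalised signal, tags inside each interval scaled to 10000000 per library, per the file headers, in the mm10 build. HOMER 4.10.4, SAMtools 1.9, Bowtie2 2.3.4.3 and cutadapt 1.14 were used, per the submitters' processing notes. Their settings, and whether totals contain a correction from the Drosophila spike-in of the protocols, are not given in the sources used here. Of the tag directories in the headers, 8 carry the mark timenorm and 4 the mark rmdup. Multiplying values by the header totals gave whole read ends (0.5 tag) for 100% of values within 0.05. H3K27me3 intervals (9195 in ESC, 8657 at day 8) came from other deposited tables and were used by overlap only.

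The plan foresaw edgeR for raw counts and limma otherwise. Values were therefore tested as log2(value + 1) with limma 3.58.1 in R 4.3.3 (empirical Bayes with trend) over the 12 time-course libraries, with 1 coefficient per genotype and day and the experiment as a block, and Benjamini-Hochberg adjustment over 15091 intervals at 0.05. On this scale the log2 difference of a weak interval depends on the pseudocount, and where a shallow library is at 0 it can exceed that of edgeR, as at Slc12a2 with 3.30 against 1.19. The estimated prior degrees of freedom were infinite, with 5 residual ones, so a p-value reflects the spread usual at that signal strength. The pairing rests on the series design text, which ties comparisons to experiments run together; same-numbered libraries correlated at 0.07, 0.12 and 0.13 after removing group means in ESC, at day 6 and at day 8. Read ends tested with edgeR 4.0.16 (TMM) gave 127 calls. DESeq2 1.42.0, other scalings, pseudocounts of 10 and 0.1, a minimum mean of 10, fits without the block and omitted libraries were alternatives. The day-6 comparison was also run on simulated data over 15091 intervals. The test recovered 52% of 50 intervals changed by a log2 of 2 and 46% of 50 changed by -2. It recovered 0% of those at 1 and 4% of those at -1, with 5 false calls among 56. The simulation used a fixed dispersion and gave both genotypes of an experiment the same mean. It thus lacked the higher share of tags inside intervals of the CaPS library of experiment 5, and its error rates need not hold for these data.

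Genes were assigned through the file's nearest-gene column with a limit of 10 kb from the start, taking the strongest interval. Genes were named as the 10 largest changes per direction, the 3 strongest and all called members of each list, a fixed set and the 5 largest of each interaction; others are said to be chosen after their values were seen, and a few genes are not reported here. The members and the 16 lists were chosen with earlier results of these data known. The alternatives without chromosomes 8 and 11, without the WT day-8 libraries and with gene starts inside intervals were added after seeing the data.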

Additional observations from a re-analysis of the deposited data

Results flagged for a closer look

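At 7 genes named by the rule, the difference between CaPS and WT at day 6 differed from that at another stage by an interaction test in limma. Relative to ESC the change on the log2 scale was 4.13 at Dbndd1 (adjusted p = 0.0422), 4.09 at Zfp428 (0.00789), 3.93 at Mrap2 (0.00485), 3.92 at Sybu (0.0121) and 3.82 at Slc12a2 (0.00218). These 5 intervals were weak, and the WT day-6 library of experiment 5 was at 0 in each. At Slc12a2, a chloride transporter gene, the day-6 values were 17.7 and 0 tags per 10 M in WT and 34.9 and 49.6 in CaPS.

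Relative to day 8 the change was 3.65 at the exon interval of Cbx2 (adjusted p = 1.19e-08) and 3.64 at Maged1 (0.0162). The Cbx2 interval held 22.9 and 79.7 tags per 10 M in WT and 35.4 and 847 in CaPS at day 6. At day 8 it held 413 and 48.4 in WT and 12.2 and 156 in CaPS, so the groups overlapped at both stages. Its p-value reflects the spread usual at that signal strength, not the wide spread between libraries in this interval. Maged1 held 12.5 and 0 tags per 10 M in WT and 16.8 and 64.0 in CaPS at day 6. At day 8 it held 16.5 and 27.4 in WT and 16.4 and 14.7 in CaPS. Groups of 2 libraries allow no check for a sample far from the others.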

How the results depend on the processing

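The block of experiments mattered: without it the day-6 calls went from 601 to 165 and those of day 6 against ESC from 56 to 2. The 4 day-6 libraries alone gave 51 calls with the block and 0 without it (1335 at an unadjusted p under 0.05). A pseudocount of 10 gave 1117 and one of 0.1 gave 95. Median-ratio scaling gave 331 (162 higher, 169 lower), with a median log2 difference of -0.0068, edgeR 127 with TMM and 137 with library totals, and DESeq2 150 (73 higher, 77 lower), so higher calls were no majority by median ratio or DESeq2. Unscaled tags and the variance of each interval alone both gave 0 in limma and the linear model, for day 6 (696 and 2064 unadjusted) and both interactions. Against ESC, counts were 0 with a pseudocount of 0.1, 37 with a minimum mean of 10, 33 by median ratio, 19 and 5 by edgeR with TMM and totals, and 31 by DESeq2. Against day 8, from 3, they were 0, 1 and 0 under the first 3 of these, 12 with equal-sum scaling, 5 by edgeR with TMM and 0 by DESeq2. Leaving out libraries or pairs gave 3 to 2638 calls at day 6, 0 to 1183 against ESC and 0 to 428 against day 8; omitting those of experiment 5 gave the low values. Called list members went from 18 to 46 with equal-sum scaling and to 9 by gene starts inside the interval. Dbx2 turned to -0.039 by edgeR with TMM and ran from -0.25 to 4.18 when libraries were left out, and Rybp from -0.32 to 4.57. The causes were not tested. Of 40 called named genes, 27 were called with equal-sum scaling, 22 without the block, 10 by edgeR with TMM, 2 without the CaPS library of experiment 5, 3 without the WT library of experiment 5 and 0 without that pair. The shallow libraries of experiment 5 limit weak intervals.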
